A study of Mus musculus with 4 samples.

Results

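The microRNAs (miRNAs) of the mir-17-92 cluster and of its paralogs were followed in cultured mouse synovial fibroblasts, the cells that line the joint. Members were taken by name: each of 10 miRNA names was searched for in the tables of every library, with both arms of its hairpin counted as separate rows. The rule found 16 rows, 10 main arms and 6 star arms (the arm kept less often, marked with an asterisk), of 590 miRNAs listed in any library.

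Small RNA was sequenced from 2 wild-type (WT) cultures and 2 cultures of TghuTNF littermates, mice with a human TNF transgene that develop arthritis, to find miRNAs that differ between their fibroblasts. All mice were 8 weeks old and on a mixed CBA/J and C57BL/6/J background, and cells came from digested hind joints and were used at passage 4. The promoter of the transgene is not given in the sources used here, and the replicates are biological per the series' design text. Fibroblasts were enriched by passaging, and per the labels' protocols most cells carried CD90.2, VCAM-1 and ICAM-1 while under 1% carried the myeloid marker Mac1. The fibroblast miRNAs chosen to check the label (miR-21, miR-143, miR-145, miR-140, miR-214 and both arms of miR-199a) were detected in every library and together made up 320700 to 354700 of every 1000000 perfect matches.

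The mir-17-92 cluster is a single primary transcript from which several hairpins are cut, and its copies elsewhere in the genome are the mir-106b-25 and mir-106a-363 clusters. A miRNA recognises its targets mainly through its seed, bases 2 to 8, so members with the same seed share many targets. The cluster is induced by MYC and E2F factors, is known for promoting proliferation and survival, and represses, among others, the apoptosis gene Bim and the cell cycle inhibitor p21.

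The 10 main arms fall into 4 seed groups. Their mature sequences are shown first because the seed sets the grouping. They also show which members are near-identical, since imperfect matches of some came close in number to perfect matches of another. All 10 main arms and 15 of the 16 rows matched a RefSeq mature sequence of build GRCm38.p6 (miR-19a* did not). Sequences are written 5′ to 3′ with the seed in capitals.
mmu-miR-17: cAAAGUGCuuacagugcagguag
mmu-miR-20a: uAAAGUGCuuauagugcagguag
mmu-miR-93: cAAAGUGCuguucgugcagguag
mmu-miR-106a: cAAAGUGCuaacagugcagguag
mmu-miR-106b: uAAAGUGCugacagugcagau
mmu-miR-18a: uAAGGUGCaucuagugcagauag
mmu-miR-19a: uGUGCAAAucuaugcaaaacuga
mmu-miR-19b: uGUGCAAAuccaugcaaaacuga
mmu-miR-92a: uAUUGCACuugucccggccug
mmu-miR-25: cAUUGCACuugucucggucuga

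The first 5 sequences carry 1 seed, AAAGUGC, and miR-18a differs from it inside the seed. miR-19a and miR-19b share GUGCAAA, and miR-92a and miR-25 share AUUGCAC. The members are 21 to 23 bases long, so their levels are compared as counts per molecule without a length correction, and how efficiently each sequence was ligated is not known.

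In GRCm38.p6 the mir-17-92 cluster covers 836 bases of the plus strand of chromosome 14, chr14:115043671-115044506, where its 6 hairpins lie in an exon of the noncoding gene Mir17hg. The mir-106b-25 cluster covers 498 bases of the minus strand, chr5:138165321-138165818, within Mcm7, which encodes a subunit of the replicative helicase. Mir106b overlapped no annotated Mcm7 exon, and Mir93 and Mir25 overlapped exonic sequence only of 1 retained-intron transcript. The mir-106a-363 cluster covers 875 bases of the minus strand of the X chromosome, chrX:52741693-52742567, outside annotated genes except for 5 bases of Mir106a that overlap an exon of the noncoding gene Kis2. The mature miR-19b and miR-92a have hairpins on both chromosome 14 and the X chromosome, with identical mature sequences. Their counts therefore cannot be assigned to a single cluster.

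The deposited tables count reads that match a miRNA with 0, 1 or 2 mismatches, and how a read that matches several miRNAs was counted is not stated. Total matches were 16680860 and 26542371 in WT and 27362819 and 22959408 in TghuTNF. Perfect matches made up 69.55%, 70.51%, 70.47% and 66.05% of them in the same order. TghuTNF replicate 2 had 11.7% of its matches with 2 mismatches, against 8.21% to 8.73% in the other libraries.

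For several members most of the total count was imperfect matches, in numbers close to the perfect matches of a neighbour in sequence. The bases at which these sequences differ from miR-17 are in capitals here, to show which members can be told apart by a perfect match.
mmu-miR-17: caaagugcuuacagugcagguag
mmu-miR-106a: caaagugcuAacagugcagguag
mmu-miR-20a: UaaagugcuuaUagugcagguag
mmu-miR-20b: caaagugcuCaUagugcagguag
mmu-miR-106b: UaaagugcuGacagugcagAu
mmu-miR-93: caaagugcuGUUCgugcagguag

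Counting from the 5′ end, miR-106a and miR-17 differ by A10U. miR-106a was listed with 6282 and 10376 total matches in WT and 10586 and 5847 in TghuTNF. Its 1-mismatch matches were 6262, 10331, 10561 and 5795, and the perfect matches of miR-17 were 6260, 10328, 10560 and 5753. The 2 series of counts therefore differed by 2, 3, 1 and 42 matches. With perfect matches miR-106a had 1 and 3 reads in WT and 0 and 1 in TghuTNF, where the count of 0 allows up to 3 reads. Of 32906 perfect matches to miR-17 or miR-106a, 5 belonged to miR-106a, a share of 0.0152% (exact Clopper-Pearson 95% interval 0.00493% to 0.0355%, counting error only, since reads carry no molecular identifiers).

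miR-17 and miR-20a differ by C1U and C12U. The 2-mismatch matches of miR-17 (11182, 14507, 14400 and 8503) exceeded the perfect matches of miR-20a by 379 to 609. Those of miR-20a (6860, 11119, 11388 and 6677) exceeded the perfect matches of miR-17 by 600 to 924. Perfect matches were 34.9% to 41.1% of the total count of miR-17 and 52.0% to 59.8% of that of miR-20a.

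miR-19a and miR-19b differ by U11C. Perfect matches made up 12.8% to 15.9% of the total count of miR-19a, while its 1-mismatch matches (365, 648, 492 and 365) exceeded the perfect matches of miR-19b by 12 to 22. miR-93, which differs from miR-17 at 4 bases, had 94.4% to 94.7% perfect matches in 3 libraries and 86.3% in TghuTNF replicate 2. Its 2-mismatch share was 0.297% to 0.348% in the former and 5.65% in the latter. Sharing did not reach every pair within 2 substitutions: miR-20b differs from miR-17 by U10C and C12U, and its 2-mismatch matches numbered 6, 4, 4 and 20.

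**Figure D1:**
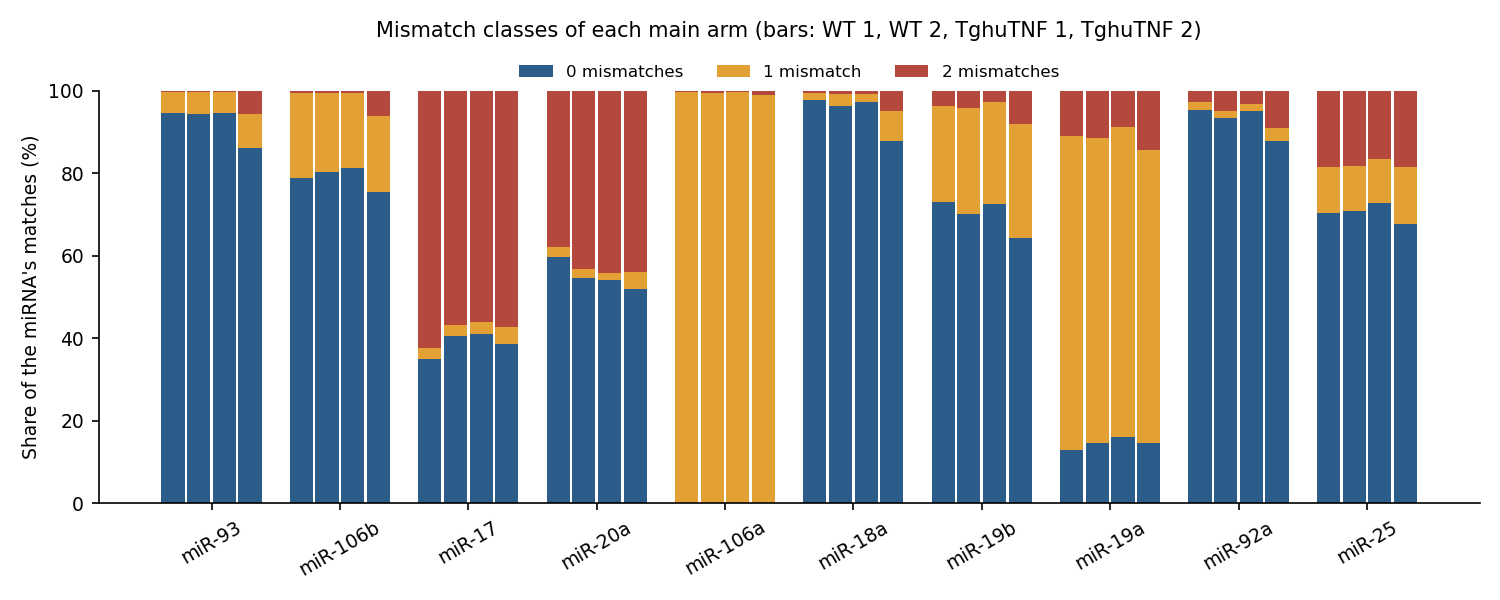
Share of each main arm's matches (vertical axis, percent) with 0, 1 and 2 mismatches, with 1 bar per library in the order WT replicates 1 and 2, TghuTNF replicates 1 and 2. miR-106a has almost no perfect matches, those of miR-17 lie between 34.9% and 41.1%, and TghuTNF replicate 2 has the lowest perfect share for miR-93, at 86.3%.

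Levels are therefore given as perfect matches per 1000000 perfect matches of the library (perfect-match CPM, scaled between libraries by TMM), with n = 2 cultures per genotype. miR-93, of the cluster within Mcm7, was the most abundant member in every library, at 3135 and 3040 CPM in WT and 2811 and 2508 in TghuTNF. It took 61.4% to 65.8% of the perfect matches of the AAAGUGC group and ranked 30 to 36 among all miRNAs. miR-20a (521 to 938 CPM) and miR-92a (539 to 937) followed at similar levels, each above the other in 2 of 4 libraries. Next came miR-17 (380 to 553) and miR-106b (404 to 537), whose ranges overlapped each other.

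Below these 5 the levels separated. The ranges of miR-25 (167 to 192 CPM), miR-18a (46.5 to 87.6), miR-19b (23.0 to 33.5), miR-19a (4.95 to 6.80) and miR-106a (0 to 0.161) did not overlap, and each was above the next in all 4 libraries. Ranks by total matches gave a different picture for miR-106a, which stood at 88 to 100 among all miRNAs by total matches and at 429 to 514 by perfect matches.

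Members cut from 1 transcript did not give equal numbers of reads, and how efficiently each sequence was ligated is not known. Within the chromosome 14 cluster miR-20a exceeded miR-18a by 10.7- to 11.8-fold, and these ratios overlapped between genotypes. miR-17 exceeded miR-18a by 6.20-fold in WT replicate 1 and by 8.16- to 8.90-fold in the others. miR-92a exceeded miR-19b, the other member with a copy on the X chromosome, by 22.6- to 30.6-fold. In the Mcm7 cluster miR-93 exceeded miR-106b by 5.66- to 6.55-fold and miR-25 by 14.4- to 18.7-fold.

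The X-linked cluster was at the limit of detection wherever it could be told apart. Of 64763250 perfect matches summed over the libraries, miR-106a had 5 and miR-20b 5 (each 0.0772 CPM, exact Poisson 95% interval 0.0251 to 0.18), and miR-363 had 3 (0.0463 CPM, 0.00955 to 0.135). miR-363 was listed at 1 and 2 reads in the TghuTNF libraries and not in WT, and miR-18b was in no table. All of these are at or under the 3 reads per library that a count of 0 allows, and no fold is given for them.

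**Figure D2:**
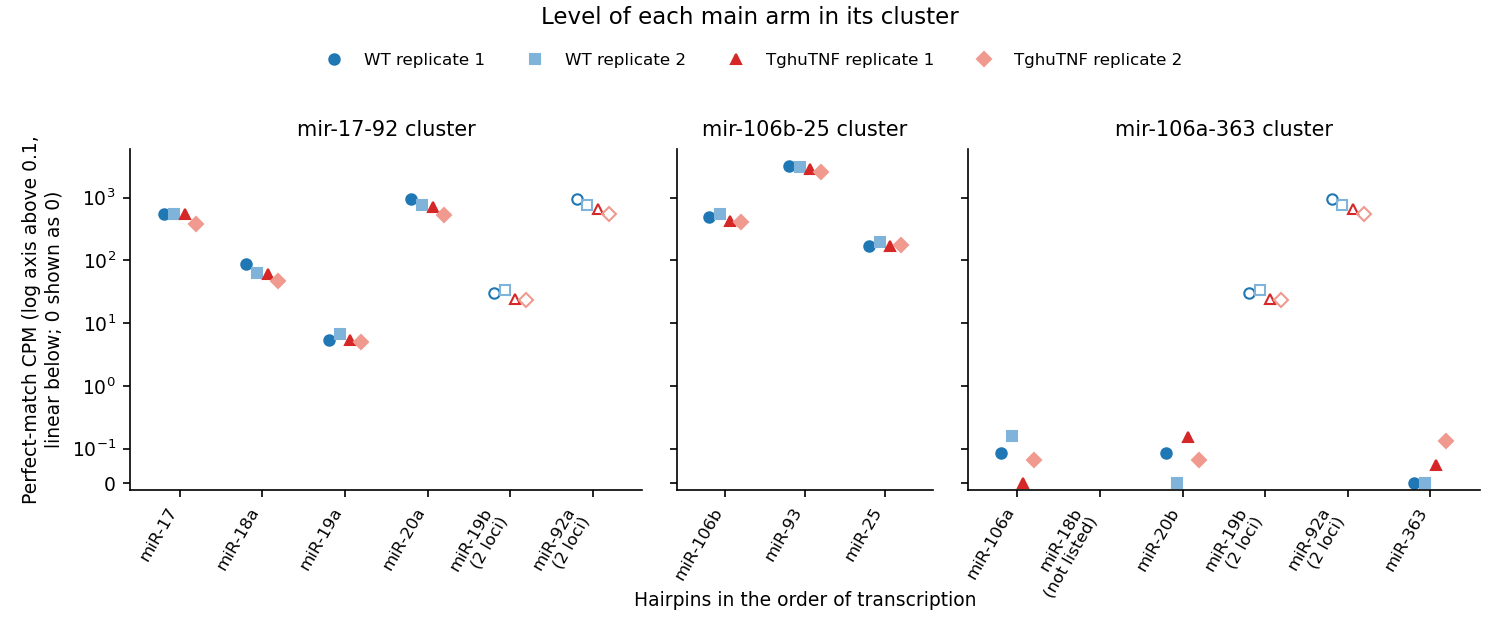
Perfect-match CPM (vertical axis, logarithmic above 0.1 and linear below) of each main arm, placed in the order of transcription of its cluster's hairpins, with 1 symbol per library. Open symbols mark miR-19b and miR-92a, which have hairpins in both outer clusters and are drawn in each; the X-linked miRNAs that can be told apart lie at or under 0.161 CPM, while miR-93 lies at 2508 to 3135.

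Genotypes were compared over all miRNAs with the quasi-likelihood test of edgeR and Benjamini-Hochberg adjustment at 0.05, once on total and once on perfect matches. In TghuTNF fibroblasts most members stood somewhat lower, with log2 fold changes down to -0.52 with perfect matches, and none passed the test. Of the 16 rows, 15 passed the filter on low counts with total matches and 14 with perfect matches (miR-19a*, at 0 or 1 read, did not, nor did miR-106a with perfect matches). None of the 15 was called with total matches, where 13.3% of all 442 miRNAs tested were called, and none of the 14 with perfect matches, where 13.2% of 380 were. DESeq2 and limma-voom also called 0 members with either count. At an unadjusted p of 0.05 edgeR had 1 member with each count, miR-92a, where 29% of all miRNAs had such a p with total and 28.7% with perfect matches.

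The direction was shared by most members. With total matches 15 of 15 had a negative log2 fold change, against 49.3% of all miRNAs tested, and their median was -0.34 against 0.006 for all. With perfect matches 13 of 14 were negative, against 50% of all, with a median of -0.28 against -0.002. Both TghuTNF libraries lay under both WT libraries for 11 of 15 members with total matches, as for 29.9% of all miRNAs tested. With perfect matches this held for 9 of 14 members, against 32.9% of all. Members come from few transcripts and, with total matches, have overlapping counts, so these are not 15 separate measurements.

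In the AAAGUGC group, whose known targets include p21 and Bim, the summed level of its 5 members was 5105 and 4880 perfect-match CPM in WT and 4498 and 3813 in TghuTNF. The genotypes did not overlap, and the mean sum was 1.20-fold lower in TghuTNF (4992 ± 159 against 4155 ± 485, SD, n = 2). It took 0.507% and 0.487% of all perfect matches in WT and 0.454% and 0.381% in TghuTNF. TghuTNF replicate 2 was the lowest library and TghuTNF replicate 1 stood between it and WT.

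miR-93 gave a log2 fold change of -0.22 ± 0.16 with perfect matches (SE; edgeR adjusted p = 0.42). Its 4 libraries, given above, did not overlap between genotypes, but the difference did not pass the test. It was -0.16 ± 0.16 with total matches, and -0.11 with perfect matches without TghuTNF replicate 2. miR-106b, from the same cluster, stood at 489 and 537 CPM in WT and 429 and 404 in TghuTNF, a log2 fold change of -0.30 ± 0.19 (edgeR adjusted p = 0.33; -0.29 ± 0.18 with total matches). Here too the genotypes did not overlap and the test was not passed.

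miR-20a stood at 938 and 750 CPM in WT and at 716 and 521 in TghuTNF. Its WT replicates differed from each other by more than WT replicate 2 did from TghuTNF replicate 1. The log2 fold change was -0.45 ± 0.22 with perfect matches (edgeR adjusted p = 0.22) and -0.34 ± 0.20 with total matches. With perfect matches it was -0.21 without TghuTNF replicate 2, -0.25 without WT replicate 1 and -0.69 without TghuTNF replicate 1. miR-17, the first hairpin of the cluster, stood at 543 and 553 CPM in WT and at 542 and 380 in TghuTNF. TghuTNF replicate 1 was just under both WT libraries, and the lower mean rested on TghuTNF replicate 2. Its log2 fold change was -0.25 ± 0.22 (edgeR adjusted p = 0.49), 0.011 without that library and -0.53 without TghuTNF replicate 1. With total matches, most of them imperfect, it was -0.35 ± 0.20.

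The total count of miR-106a gave a log2 fold change of -0.25 ± 0.22, close to the value of miR-17 with perfect matches. With 5 perfect matches in 33091, that count cannot be read as the level of the X-linked locus.

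miR-18a, the only member of the AAGGUGC group, stood at 87.6 and 63.6 CPM in WT and at 60.9 and 46.5 in TghuTNF. The 2 WT cultures lay farther apart than WT replicate 2 and TghuTNF replicate 1, and the log2 fold change of -0.49 ± 0.26 did not pass (edgeR adjusted p = 0.26; -0.44 ± 0.25 with total matches). It was -0.22 without WT replicate 1, -0.28 without TghuTNF replicate 2 and -0.71 without WT replicate 2.

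In the GUGCAAA group, miR-19b stood at 30.6 and 33.5 CPM in WT and at 24.4 and 23.0 in TghuTNF. Replicates lay close together and the genotypes did not overlap. The log2 fold change of -0.43 ± 0.25, from 349 to 626 reads per library, did not pass (edgeR adjusted p = 0.27). miR-19a stood at 5.30 and 6.80 CPM in WT and at 5.34 and 4.95 in TghuTNF. Its genotypes overlapped, with a log2 fold change of -0.24 ± 0.31 from 61 to 127 reads, and of -0.044 without WT replicate 2. With total matches miR-19a gave -0.40 ± 0.23, close to the -0.38 ± 0.23 of miR-19b, whose perfect matches nearly equal the 1-mismatch part of that count.

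In the AUUGCAC group, miR-92a stood at 937 and 759 CPM in WT and at 659 and 539 in TghuTNF. The genotypes did not overlap. Its log2 fold change of -0.50 ± 0.20 had the smallest p of any member, 0.037 unadjusted and 0.15 adjusted by edgeR. It was -0.47 ± 0.20 with total matches, and with perfect matches -0.32 without WT replicate 1 and -0.34 without TghuTNF replicate 2. miR-25, which has the same seed but comes from the Mcm7 cluster, stood at 167 and 192 CPM in WT and at 169 and 174 in TghuTNF. It overlapped between genotypes, at -0.067 ± 0.21 (edgeR adjusted p = 0.85; -0.064 ± 0.20 with total matches). The ratio of miR-92a to miR-25 was 5.59 and 3.95 in WT and 3.89 and 3.10 in TghuTNF. WT replicate 2 and TghuTNF replicate 1 were close in this ratio, on which no test was run.

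**Figure D3:**
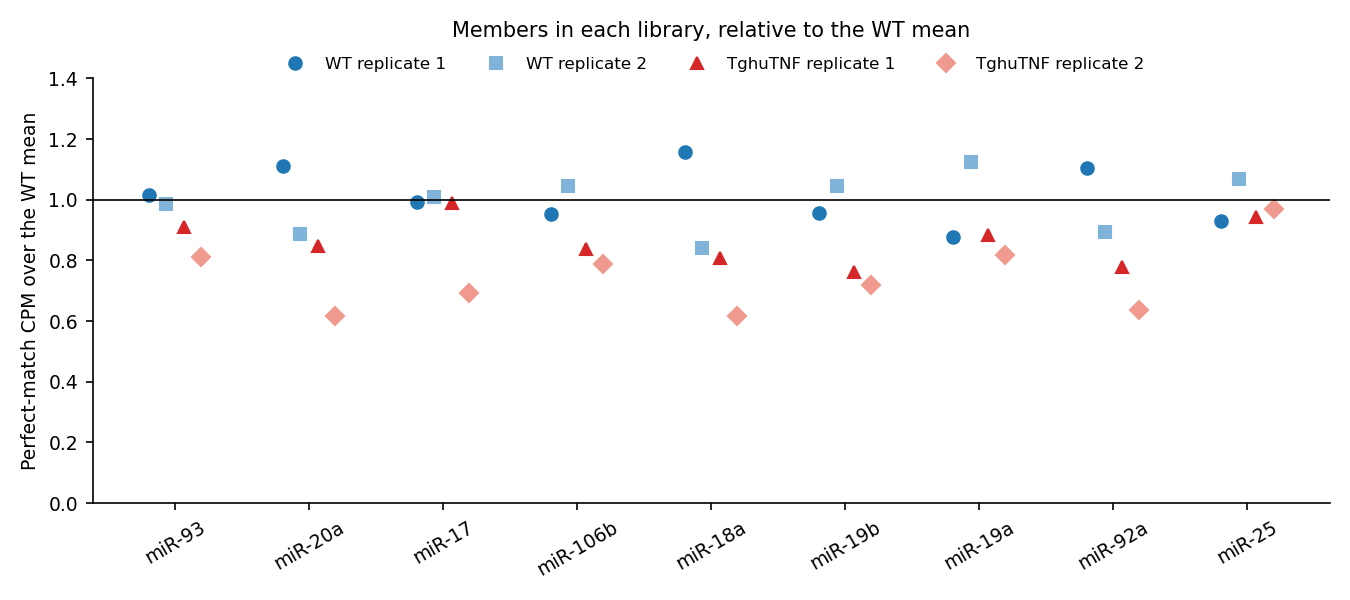
Perfect-match CPM of the 9 main arms that passed the filter, each divided by its WT mean (vertical axis, line at 1), with 1 symbol per library. TghuTNF replicate 2 is the lowest library for 8 of the 9, miR-25 being the exception, and for miR-17 TghuTNF replicate 1 (542 CPM) lies next to the WT mean (548).

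By cluster, the 4 members made only on chromosome 14 (miR-17, miR-18a, miR-19a and miR-20a) summed to 1574 and 1373 CPM in WT and to 1325 and 953 in TghuTNF, 1.29-fold lower. The 3 members of the Mcm7 cluster summed to 3791 and 3769 CPM in WT and to 3409 and 3086 in TghuTNF, 1.16-fold lower. miR-19b and miR-92a, which have hairpins both on chromosome 14 and on the X chromosome, summed to 967 and 792 CPM in WT. In TghuTNF they summed to 684 and 563, 1.41-fold lower. The genotypes did not overlap in these 3 sums, which add up members already described. With perfect matches 32.9% of all miRNAs tested were likewise lower in TghuTNF without overlap. The ratio of the chromosome 14 members to the Mcm7 members was 0.415 and 0.364 in WT and 0.389 and 0.309 in TghuTNF, and overlapped between genotypes.

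The star arms gave a second reading of 5 hairpins. miR-17* stood at 56.9 and 45.9 CPM in WT and at 43.2 and 28.4 in TghuTNF, without overlap, with a log2 fold change of -0.52 ± 0.28 (edgeR adjusted p = 0.26). It was -0.22 without TghuTNF replicate 2, -0.33 without WT replicate 1 and -0.85 without TghuTNF replicate 1. The other 4 star arms were scarcer when only perfect matches were counted. The total count placed miR-106b* above miR-17* in every library. For miR-106b* it gave 46.9 and 47.9 CPM in WT and 45.6 and 46.1 in TghuTNF. For miR-17* it gave 43.6 and 35.9 CPM in WT and 34.4 and 23.5 in TghuTNF. By perfect matches miR-106b* stood at 10.4 and 11.8 CPM in WT and at 10.7 and 10.2 in TghuTNF (-0.091 ± 0.27). miR-18a* stood at 3.56 and 2.89 CPM in WT and at 3.44 and 2.57 in TghuTNF (-0.086 ± 0.34). In perfect matches miR-106b* and miR-18a* thus overlapped between genotypes. miR-93*, with 14 to 32 reads, stood at 1.30 and 1.71 CPM in WT and at 1.28 and 0.924 in TghuTNF (-0.45 ± 0.41). miR-20a*, with 7 to 26 reads, stood at 1.13 and 0.642 CPM in WT and at 1.33 and 0.462 in TghuTNF (0.11 ± 0.58). The sign of miR-20a* turned with the count used, to -0.22 ± 0.59 with total matches. Only 14.9% to 16.9% of the matches of miR-106b* were perfect, in every library, and 75.5% to 77.1% had 1 mismatch. Its RefSeq sequence is shown for that reason, with its seed in capitals; whether the authors matched against the same bases is not stated.
mmu-miR-106b*: cCGCACUGuggguacuugcugc

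**Figure D4:**
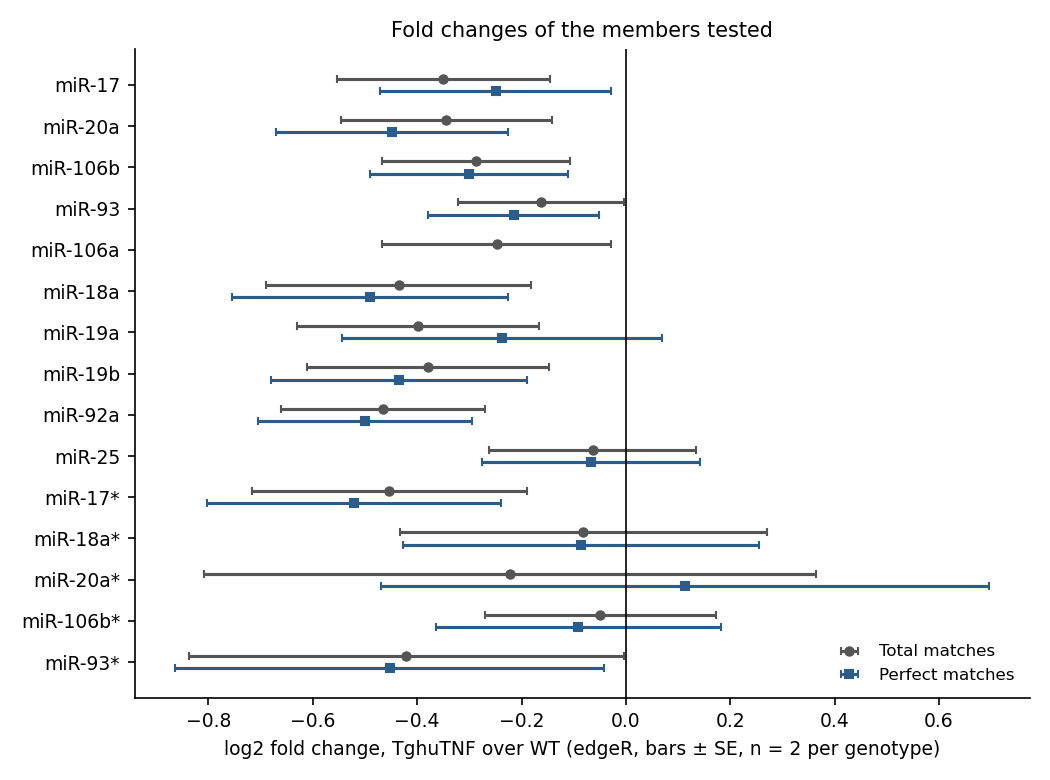
log2 fold change of TghuTNF over WT (horizontal axis, bars ± SE, n = 2 per genotype) for the members tested, from total and from perfect matches. Values lie between -0.52 and 0.11, and none passed edgeR's test.

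The ratio of main to star arm within a library does not depend on scaling. It was compared with limma over all hairpins with both arms past the filter, with total matches and a pseudocount of 0.5. No member hairpin of 5 was called, where 0% of all hairpins were called. At an unadjusted p of 0.05 there were 6 hairpins, none a member. miR-17 exceeded miR-17* by 25.0- and 26.1-fold in WT and by 27.0- and 28.0-fold in TghuTNF, a log2 difference of 0.11 ± 0.24 (limma adjusted p = 0.90). These totals hold the 2-mismatch matches of miR-17, and with perfect matches the ratio was 9.54 and 12.03 in WT and 12.5 and 13.4 in TghuTNF. The ratio of miR-18a to miR-18a* was 23.8 and 21.8 in WT and 17.6 and 18.9 in TghuTNF (-0.32 ± 0.25, limma adjusted p = 0.82). That of miR-106b to its star arm was 9.27 and 9.57 in WT and 8.16 and 7.82 in TghuTNF (-0.24 ± 0.24, limma adjusted p = 0.85). With perfect matches, few of which miR-106b* had, it was 46.8 and 45.3 in WT and 40.1 and 39.4 in TghuTNF (-0.21 ± 0.31). The size of these ratios thus depended on the count, and neither count gave a call. For miR-93 the ratio was 1776 and 1603 in WT and 1779 and 2380 in TghuTNF, with 1 WT and 1 TghuTNF library nearly equal (0.29 ± 0.27, limma adjusted p = 0.82), and it overlapped with perfect matches. For miR-20a, whose totals also hold many 2-mismatch matches, it was 689 to 1445 and overlapped between genotypes. With perfect matches it was 526 to 1121 and overlapped too, and miR-20a* had only 10 to 37 total matches per library.

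Relatives outside the rule were few. Of the names listed for this purpose, miR-20b, miR-363, miR-92b, miR-32, miR-294 and miR-302b had rows, and 2 passed the filter with perfect matches, both with negative changes and neither called. miR-92b, which has the seed of miR-92a and comes from its own locus on chromosome 3, stood at 12.3 and 20.0 CPM in WT and at 8.52 and 5.81 in TghuTNF. Its log2 fold change of -1.17 ± 0.34 was larger than that of any member and did not pass (edgeR adjusted p = 0.055; 0.11 with total matches at -0.76 ± 0.29). miR-32, which also has this seed, stood at 9.55 and 8.19 CPM in WT and at 4.93 and 6.60 in TghuTNF (-0.62 ± 0.31, edgeR adjusted p = 0.22). Both were without overlap between genotypes.

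The lower values rested unequally on the 2 TghuTNF libraries. Over the members tested with total matches, the median log2 difference from the WT mean was -0.12 in TghuTNF replicate 1 and -0.48 in TghuTNF replicate 2. With perfect matches it was -0.16 and -0.48. TghuTNF replicate 2 is also the library with the most 2-mismatch matches, and the part of this in its lower values was not tested. Without TghuTNF replicate 1, the median log2 fold change of the members was -0.63 with total matches, against -0.10 for all miRNAs tested. In that fit miR-17 (-0.69), miR-20a (-0.68) and miR-106a (-0.63) had overlapping counts. The total counts of miR-17 and miR-20a were nearly equal, and the 1-mismatch matches of miR-106a nearly equalled the perfect matches of miR-17. With perfect matches the members' median was then -0.50, against -0.048 for all, with -0.53 for miR-17 and -0.69 for miR-20a. Without TghuTNF replicate 2, the members' medians were -0.15 with total and -0.19 with perfect matches. Each of these fits leaves 1 TghuTNF library, which is assumed to vary like the WT pair.

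The summed markers of 4 other cell types did not overlap between genotypes, and their part in the members' values was not tested. Among all miRNAs tested with perfect matches, 32.9% were lower in TghuTNF without overlap and 27.4% were higher. The 6 blood cell markers summed to 9.14 and 4.11 perfect-match CPM in WT and to 19.3 and 14.6 in TghuTNF, with 1 of 6 (miR-144) at 0 in both TghuTNF libraries. The 2 endothelial markers summed to 115 and 103 CPM in WT and to 64.5 and 59.1 in TghuTNF. The 6 epithelial markers summed to 37.9 and 38.3 CPM in WT and to 23.1 and 18.7 in TghuTNF, with 2 of 6 at 0 in WT replicate 1, and the 4 muscle markers to 3095 and 3926 and to 2666 and 2248. The 3 neural markers overlapped between genotypes, at 80.4 to 97.3 CPM, with miR-124 at 0 in every library. In bulk cultures, fewer cells that make a miRNA and less of it per cell cannot be told apart.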

How the data were processed

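Per the file headers, the authors ran mimap (version 3d) against 707 mouse mature miRNAs, allowing up to 2 mismatches (read length 37, hash length 9). What they deposited are raw counts for each miRNA and library, without normalisation, split into 0-, 1- and 2-mismatch matches. Which miRBase release was used, and how reads with several matches were counted, was not stated in the labels or headers.

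Total and perfect matches were each filtered with filterByExpr, scaled with TMM and tested with edgeR 4.0.16 (quasi-likelihood, genotype as the only term, two-sided, Benjamini-Hochberg adjustment over all miRNAs kept) in R 4.3.3. The SE given with an edgeR log2 fold change is its absolute value divided by the square root of the test's F statistic. It was not estimated separately. Arm ratios were compared with limma 3.58.1. The tests were checked on simulated data with changes larger than that of any member in the main test. That check does not cover changes of the members' size. Sums over seed groups and clusters carry no test. Alternatives were DESeq2 1.42.0, limma-voom, other scaling factors, other low-count filters, a replicate block and leaving out each library. By the rule for names, every row matched is accounted for, and those past the filter are described, main arms first. Members and lists were chosen with earlier results of these data known.

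A count of 0 allows 3 reads, 0.156 to 0.259 CPM of perfect matches. Both genotypes had 2 cultures, which limits every test.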

Additional observations from a re-analysis of the deposited data

How the results depend on the processing

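No member was called under DESeq2, limma-voom, library size only, no filter or a mean CPM of at least 100, with either count. That CPM filter left only 7 members tested with total and 6 with perfect matches. Upper quartile factors moved the median of all miRNAs with perfect matches to -0.28, and then called 1 member (miR-92a, -0.77, edgeR adjusted p = 0.045) with a member median of -0.55, as far from the median of all miRNAs (-0.27) as before. Lower calls were then 78.7% of all calls, against 62% before. Leaving out each library in turn gave 0 to 6 members called and medians of -0.63 to -0.15 with total matches, and 0 to 1 called and medians of -0.50 to -0.19 with perfect matches.

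Same-numbered cultures did not deviate together (correlation -0.088 with total and -0.096 with perfect matches over all miRNAs tested). The replicate block called 0 members, with medians of -0.37 and -0.29, and 87 miRNAs in place of 59 with total and 61 in place of 50 with perfect matches.

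Signs turned for 4 members near 0 or with few reads and for miR-17, and the cause was not tested. With perfect matches miR-20a* was -0.16 with upper quartile factors, -0.00093 with limma-voom and -0.053 with the replicate block, and miR-25 was 0.0089 with a mean CPM of at least 100. The fits that each omit 1 library gave -0.86 to 0.68 for miR-20a*, -0.14 to 0.033 for miR-25, -0.31 to 0.13 for miR-18a*, -0.15 to 0.0026 for miR-106b* and -0.53 to 0.011 for miR-17. With total matches it gave -1.32 to 0.37 for miR-20a*, -0.39 to 0.088 for miR-18a* and -0.14 to 0.013 for miR-25. The arm ratio change of miR-20a was -0.026 with a pseudocount of 5, -0.35 with perfect matches and -0.49 to 0.58 without 1 library each.

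Counts of called miRNAs over the whole table changed by over 1.5 times in some settings. From 59 with total matches they went to 93 without a filter, 14 with a mean CPM of at least 100 and 153 without TghuTNF replicate 1. From 50 with perfect matches they went to 18 with that CPM filter, 30 without WT replicate 1, 21 without WT replicate 2 and 93 without TghuTNF replicate 1.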
